A study of Mus musculus with 12 samples.

Results

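Mouse fetal membranes that lacked both biglycan and decorin were compared between embryonic day 12 (E12) and embryonic day 18 (E18), shortly before birth. The members are 6 of the 12 libraries of the series, assigned by their labels: 3 libraries of E12 double knockout (DKO) membranes and 3 of E18 DKO membranes, with every annotated gene. All 6 share the deletion of biglycan and decorin, both proteoglycans of the small leucine-rich family that attach to collagen fibrils, and their strain is given as C3H and C57BL/6. The other 6 libraries are labelled wild-type C3H membranes of the same stages, and they enter the comparison at the end and the values given with all 12 libraries fitted. RNA was extracted from whole membranes, ground frozen, and libraries of polyadenylated RNA were sequenced with a stranded kit. The labels name no dam, litter, pool or membrane layer, so p-values measure the spread between these libraries, which may be technical. In whole tissue, fewer cells of a type and less RNA per cell cannot be told apart.

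Fetal membranes surround the fetus and its fluid. In the mouse they include the amnion, a thin epithelium on a collagenous stroma, and the visceral yolk sac, whose endoderm takes up maternal proteins, secretes lipoproteins and serum proteins, and lies over a vascular mesoderm that forms the first red blood cells. The yolk sac surrounds the mouse fetus until birth. Glucocorticoids, prostaglandins and inflammatory mediators are known to act on the membranes near term.

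Total counts lay between 19967593 and 33065424 per library, and 17133 genes had enough counts to be tested with edgeR's quasi-likelihood test. Levels are given as counts per 1000000 (CPM) on library sizes scaled by trimmed mean of M values (TMM), or per length as transcripts per 1000000 (TPM) where genes are set side by side. Fold changes are log2 values, E18 over E12, ± SE, and a gene is called at an adjusted p under 0.05. The biological coefficient of variation was 0.165 among the E12 libraries and 0.318 among the E18 libraries. Bgn (chrX:73483602-73495933, GRCm38) was at 16.2, 16.1 and 14 CPM at E12 and 25, 23.4 and 24.5 CPM at E18, a log2 fold change of 0.65 ± 0.12 (adjusted p = 0.0031) that was not called with scaling by library size alone (0.30, adjusted p = 0.1) or when all 12 libraries were fitted together (0.65, 0.111). Dcn (chr10:97479500-97518162) was at 5.87, 8.39 and 6.81 CPM at E12 and 4.66, 4.69 and 6.18 CPM at E18, and the stages overlapped (adjusted p = 0.124). Reads were thus counted at both targeted genes, and gene counts do not say from which part of a gene they come. E12 DKO 1, E12 DKO 2 and E18 DKO 3 held Xist at 377 CPM or more and Y-linked transcripts under 0.5 CPM, and the other 3 libraries held Y-linked transcripts at 129 CPM or more. Sex was thus mixed at both stages, and 9919 genes were called with the Y-linked level as a covariate.

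Of the 17133 genes, 10177 were called (59.4%), 5263 of them higher at E18 (30.7%) and 4914 lower (28.7%). Scaled by library size alone the split was 3595 higher and 6930 lower, with the median of all genes at -0.348 in place of 0.005 on the log2 scale, and the changes below are relative to the TMM scale. When the test asked for more than a 2-fold change, 4062 genes were called (23.7%), and 2162 of these were higher (12.6%) and 1900 lower (11.1%). The CPM values of the stages did not overlap for 68.5% of the tested genes. Since most genes differed between the stages, a list of genes is described by its direction and its median change beside these shares. Most of the lists are taken in turn below with their counts.

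**Figure D1:**
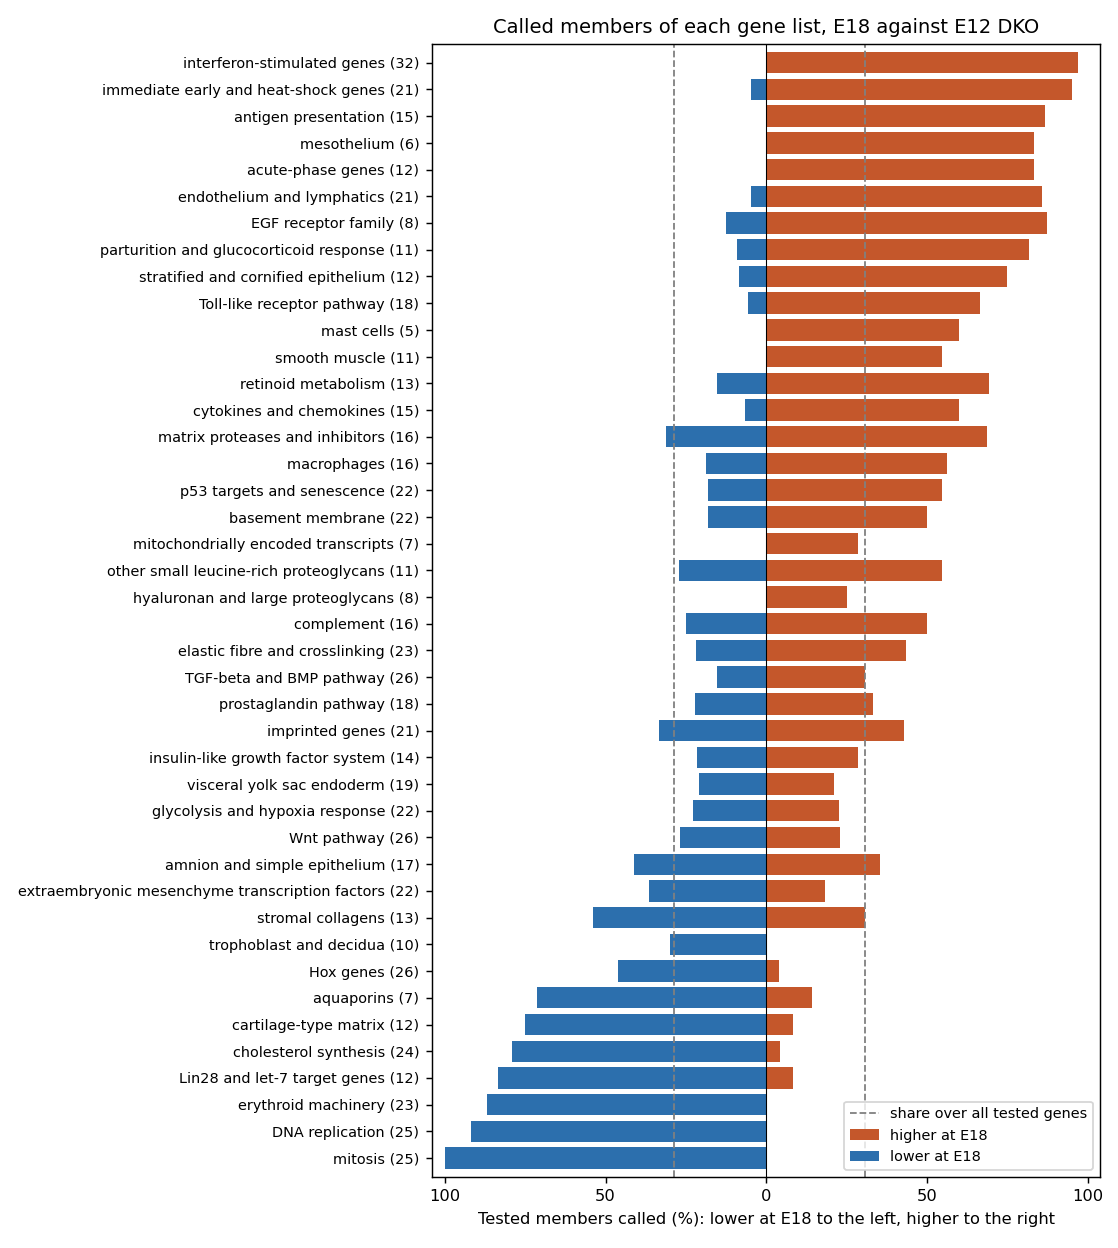
Share of the tested members of each gene list that was called higher (right, orange) or lower (left, blue) at E18 than at E12 in DKO membranes, in percent, with the number of tested members in brackets; dashed lines mark the shares over all tested genes, 30.7% higher and 28.7% lower. All 25 mitosis genes were called lower and 31 of 32 interferon-stimulated genes were called higher.

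The cell makeup of the libraries was checked with marker genes fixed for each cell type. Afp, the main serum protein of yolk sac endoderm, was at 59200, 60400 and 63600 CPM at E12 and 41700, 66600 and 71900 CPM at E18 and had 48500 TPM at E12 and 34700 TPM at E18. Apoa1, an apolipoprotein of the same endoderm, had 15500 TPM at E12 and the highest level of any gene, 55300 TPM, at E18. Lymphocyte and natural killer cell markers summed to at most 0.876 CPM in every library, and none of their 11 genes had enough counts to be tested. Some libraries stood apart within their stage. E18 DKO 3 held more of several endoderm transcripts: Ttr was at 805, 627 and 8320 CPM and Apoa2 at 78.7, 177 and 1460 CPM in E18 DKO 1, 2 and 3. E18 DKO 2 held transcripts of trophoblast, with Tpbpa at 0.219, 18.7 and 0.705 CPM and Prl3b1 at 0.164, 16.1 and 0.651 CPM over the same 3 libraries. E12 DKO 3 lacked most of the Gabrp signal of the amnion, given below. Some values below are also given without 1 library.

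Red blood cell transcripts changed in kind between the stages. Primitive red cells of the yolk sac use embryonic globins, and definitive red cells of the fetal liver use adult globins. Hbb-y, the embryonic beta-globin (chr7:103851749-103853216), was at 532, 2280 and 1460 CPM at E12 and 14.1, 13.1 and 14.3 CPM at E18, and Hba-x, the embryonic alpha-globin, was at 137, 583 and 352 CPM at E12 and 3.56, 3.52 and 3.8 CPM at E18. Every E18 library was below every E12 library for both genes, although the E12 libraries differed among themselves. The log2 fold changes were -6.69 ± 0.58 for Hbb-y (adjusted p = 9.93e-05), -6.62 ± 0.58 for Hba-x and -6.37 ± 0.55 for Hbb-bh1. Among the adult globins, Hba-a1 was at 153, 496 and 311 CPM at E12 and 296, 485 and 645 CPM at E18, and the stages overlapped (adjusted p = 0.296). Hbb-bs rose by 1.61 ± 0.46 (adjusted p = 0.0186), a change of 2.20 without E12 DKO 2 and a call lost without E12 DKO 3 (adjusted p = 0.0642) and with all 12 libraries fitted (0.164). Hba-a1 and Hba-a2, and Hbb-bs and Hbb-bt, are near-identical copies, and their levels are uncertain because reads aligned to several places were not counted.

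As a share of alpha-globin counts, Hba-x made up 43.0%, 43.9% and 42.9% in E12 DKO 1, 2 and 3 and 0.762%, 0.588% and 0.374% in E18 DKO 1, 2 and 3. The embryonic genes Hbb-y and Hbb-bh1 made up a mean of 84.0% (SD 1.49) of beta-globin counts at E12 and 1.91% (SD 0.688) at E18. The shares of the E12 libraries lay within 3 percentage points of each other although their Hbb-y levels differed more than 4-fold. Within the embryonic beta-globins, Hbb-bh1 supplied 3.25 to 4.22% of the counts at E12 and 3.11 to 5.73% at E18. The exact 95% binomial intervals of the beta-globin shares, which cover counting error only, were at widest 81.8 to 82.9% at E12 and 2.36 to 3.0% at E18. Reads shared between the near-identical adult copies were not counted. Their loss would raise the embryonic shares at both stages by an amount that was not measured.

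**Figure D2:**
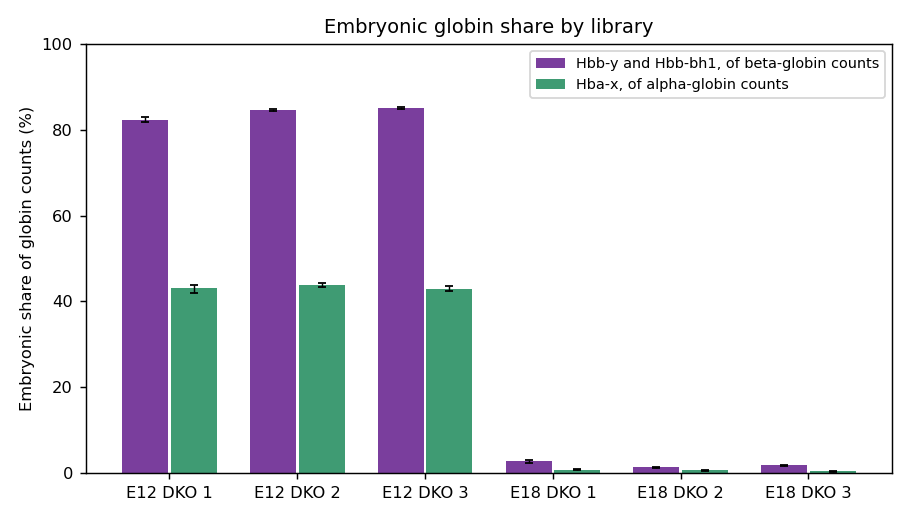
Share of embryonic transcripts among beta-globin counts (purple, Hbb-y and Hbb-bh1) and among alpha-globin counts (green, Hba-x) in each DKO library, in percent, with exact 95% binomial intervals as bars. The E12 libraries sit between 82.3 and 85.1% for beta-globin and the E18 libraries between 1.33 and 2.67%.

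The machinery of red cell formation was lower at E18, with 20 of 23 tested genes called lower and 0 higher (median log2 change -2.45), or 1 higher without E18 DKO 3. Slc4a1, the anion exchanger of the red cell membrane, was at 18.3, 76.1 and 51.9 CPM at E12 and 1.04, 1.38 and 2.12 CPM at E18 (-5.01 ± 0.59, adjusted p = 0.000378). Its low E18 values lay apart from all E12 values. For Epb42, a membrane skeleton gene, only 3 counts remained at E18, a ratio of 116-fold (95% counting interval 39.4 to 563). Gata1, the erythroid transcription factor, fell with a ratio of 7.82-fold (95% counting interval 3.98 to 17.6). The transferrin receptor Tfrc, which loads iron, fell from 107, 91.6 and 83.6 to 22.3, 20.1 and 9.65 CPM (-2.43 ± 0.30). Alas2, the first enzyme of heme synthesis in red cells, was at 9.71, 33.2 and 29.6 CPM at E12 and 9.2, 22.6 and 16.5 CPM at E18 and was not called (adjusted p = 0.331). Blood left in the membranes was not measured separately, and its part in these values was not tested.

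All 25 tested mitosis genes were lower at E18 and none overlapped between the stages (median log2 change -4.68). Their summed level was 1890 to 1960 CPM in the E12 libraries and 95.1 to 136 CPM in the E18 libraries. Mki67, the marker of cycling cells, was at 275, 254 and 273 CPM at E12 and 13.1, 30.9 and 22.3 CPM at E18 (-3.59 ± 0.30, adjusted p = 8.73e-05), and Top2a, the topoisomerase that untangles replicated DNA, was at 181, 163 and 169 CPM at E12 and 5.15, 3.56 and 6.51 CPM at E18 (-5.08 ± 0.23). Ccnb1, the cyclin that starts mitosis, was at 41.8, 42.2 and 40.3 CPM at E12 and 0.822, 0.419 and 1.25 CPM at E18 (-5.67 ± 0.33), and the spindle motor Kif11 was at 72.1, 76.2 and 68.7 CPM at E12 and 1.26, 1.72 and 1.9 CPM at E18 (-5.47 ± 0.18, adjusted p = 5.08e-06). In each of these genes the 3 E12 values lay close together and far above the E18 values. Foxm1, a transcription factor of the same program, fell by 3.90 ± 0.20. Plk1, a mitotic kinase, was at 45.6, 43.7 and 42.3 CPM at E12 and 1.92, 1.51 and 4.45 CPM at E18, a log2 fold change of -4.08 ± 0.38 that was -4.69 without E18 DKO 3.

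Of 25 tested replication genes 23 were lower and 0 higher, with a median log2 change of -2.28. The helicase subunits Mcm2 to Mcm7 were all called lower, from -4.60 ± 0.15 for Mcm5 to -1.46 ± 0.15 for Mcm6. Mcm5 went from 62.3, 55.5 and 60.4 to 2.36, 2.76 and 2.17 CPM, and Mcm6 from 124, 111 and 122 to 35.9, 51.1 and 42.6 CPM. The licensing factor Cdc6 fell by 4.70 ± 0.34 and Uhrf1, which maintains DNA methylation after replication, by 4.20 ± 0.23. Pcna, the sliding clamp, fell by 1.42 ± 0.22. The exceptions were Rrm2, a subunit of ribonucleotide reductase, at 62.8, 58.6 and 56.1 CPM at E12 and 33.9, 64.8 and 46.6 CPM at E18 (adjusted p = 0.297), and Gins2 at 50.4, 52.3 and 47 CPM at E12 and 49.6, 28.7 and 38.7 CPM at E18 (adjusted p = 0.153). Their stages overlapped. Lmnb1, a nuclear lamin listed among the senescence genes, fell from 141, 109 and 129 to 7.94, 10 and 12.7 CPM (-3.62 ± 0.20), and Cdkn1a and Cdkn1c, inhibitors of cyclin-dependent kinases, rose by 2.87 ± 0.13 and 2.14 ± 0.18. Cdkn1c was at 1030, 862 and 932 CPM at E12 and 4810, 3830 and 3830 CPM at E18, so its transcript was abundant at both stages and several-fold higher in each E18 library.

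Promoters of the mitosis genes are shown because this list moved together. The windows run from 250 bases before to 50 bases after the transcript start in RefSeq (GRCm38.p6), and 20 of the 25 genes had 1 or more listed windows. The cell cycle genes homology region, or CHR, was searched as TTTGAA and the CCAAT box as CCAAT, both on either strand. CHR letters stood in 15 of the 20 genes (75.0%), against 14.5% of the 12115 tested genes with a window and 17.9% of all 32851 windows. CCAAT stood in 17 (85.0%), against 42.1% of tested genes and 37.4% of all windows. Both stood in 14 (70.0%), against 7.02% of tested genes and 6.95% of all windows. A match describes the letters and is no measurement of binding. The genes shown had the lowest adjusted p among members with a single window that held both motifs, and capitals mark CHR and CCAAT letters on either strand (TTCAAA and ATTGG on the printed strand are the reverse complements). They were Kif11 (chr19:37376132-37376431, plus strand), Bub1b (chr2:118597961-118598260, plus strand), a spindle checkpoint kinase that fell by 4.83 ± 0.19, and Aurka (chr2:172370521-172370820, minus strand), a spindle pole kinase that fell by 3.15 ± 0.14, each written in the direction of the gene.
Kif11: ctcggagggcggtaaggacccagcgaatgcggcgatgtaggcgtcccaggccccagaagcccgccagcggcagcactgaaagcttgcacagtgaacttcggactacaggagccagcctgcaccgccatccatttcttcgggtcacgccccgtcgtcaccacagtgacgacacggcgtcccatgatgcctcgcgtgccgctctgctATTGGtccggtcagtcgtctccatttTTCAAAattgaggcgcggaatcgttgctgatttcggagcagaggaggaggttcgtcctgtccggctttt
Bub1b: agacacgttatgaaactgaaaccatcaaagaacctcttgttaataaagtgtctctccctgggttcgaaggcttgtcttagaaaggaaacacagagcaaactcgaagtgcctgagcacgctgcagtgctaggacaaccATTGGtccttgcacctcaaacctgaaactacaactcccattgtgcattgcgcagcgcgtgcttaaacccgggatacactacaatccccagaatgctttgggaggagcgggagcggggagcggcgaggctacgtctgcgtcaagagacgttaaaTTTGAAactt
Aurka: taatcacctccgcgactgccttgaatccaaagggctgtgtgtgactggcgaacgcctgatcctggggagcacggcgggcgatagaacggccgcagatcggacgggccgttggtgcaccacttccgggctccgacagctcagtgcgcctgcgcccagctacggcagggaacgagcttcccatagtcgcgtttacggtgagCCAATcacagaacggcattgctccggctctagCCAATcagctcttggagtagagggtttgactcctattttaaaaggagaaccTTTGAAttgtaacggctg

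Interferon-stimulated genes moved the other way. Of 32 tested, 31 were higher at E18 and 0 lower (median log2 change 2.28), and their summed level was 459 to 528 CPM at E12 and 1570 to 2300 CPM at E18. Usp18, a protease that removes the ubiquitin-like Isg15 from proteins, was at 4.04, 4.95 and 6.73 CPM at E12 and 103, 114 and 106 CPM at E18 (4.35 ± 0.21, adjusted p = 1.36e-05). Isg15 itself was at 1.47, 1.69 and 3.72 CPM at E12 and 33.7, 23.5 and 56.5 CPM at E18 (4.03 ± 0.48), and Irf7, a transcription factor that amplifies interferon production, at 5.96, 6.87 and 6.92 CPM at E12 and 80.1, 67.3 and 129 CPM at E18 (3.81 ± 0.27). The E18 values of Isg15 differed among themselves by more than those of Usp18, and neither gene overlapped between the stages. Ifit3, an antiviral protein, rose from 2.44, 1.89 and 2.28 to 29.5, 34.8 and 48.8 CPM (4.09 ± 0.24). It has near-identical relatives, so its level is uncertain. Irf9, a transcription factor of the interferon response, rose by 1.39 ± 0.12. Ddx58, the RNA sensor RIG-I, was at 70, 72.3 and 80 CPM at E12 and 70.9, 74.3 and 93.5 CPM at E18 and was the single member not called (adjusted p = 0.54). Ifne, an interferon of epithelia, had 1 count over the E12 libraries and was at 11.2, 22.3 and 5.86 CPM at E18, a ratio of 1350-fold (95% counting interval 242 to 53600). This was at least 132-fold without E12 DKO 3, against a floor of 3 counts per library, and 827-fold (147 to 32800) without E18 DKO 2.

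**Figure D3:**
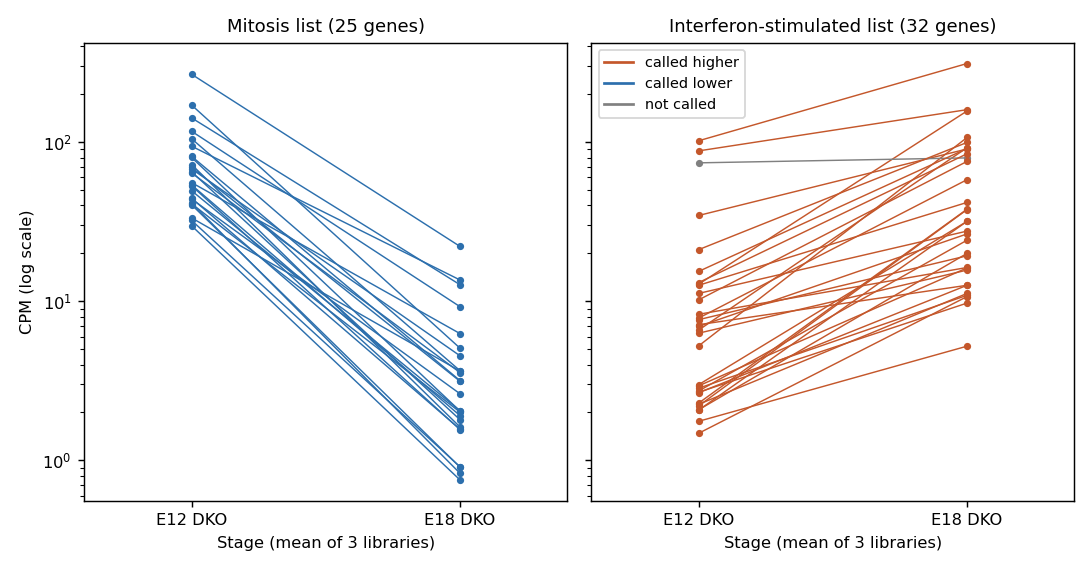
Mean CPM of 3 DKO libraries per stage (log axis) for each tested gene of the mitosis list (left, 25 genes) and of the interferon-stimulated list (right, 32 genes), with lines joining the stages of 1 gene. All mitosis lines fall, and all interferon lines that were called rise, the uncalled line being Ddx58.

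Promoters of interferon-stimulated genes were searched for the interferon-stimulated response element, spelled GAAA, any 2 bases and GAAA on either strand. Windows were listed for 23 of the 32 genes, and 13 held the letters (56.5%), against 3.67% of the 12115 tested genes with a window and 3.44% of all windows. Ddx58, which did not pass the test, was 1 of the 13. Shown are the members with the lowest adjusted p and a single window holding the element, which is in capitals (as TTTC, any 2 bases and TTTC on the printed strand, the reverse complement). Ifit3 (chr19:34583279-34583578, plus strand) and Ifit1 (chr19:34640639-34640938, plus strand) are neighbouring antiviral genes, each with 2 matches, and Gbp7 (chr3:142530086-142530385, plus strand), a guanylate-binding protein that rose by 2.56 ± 0.22, has 1.
Ifit3: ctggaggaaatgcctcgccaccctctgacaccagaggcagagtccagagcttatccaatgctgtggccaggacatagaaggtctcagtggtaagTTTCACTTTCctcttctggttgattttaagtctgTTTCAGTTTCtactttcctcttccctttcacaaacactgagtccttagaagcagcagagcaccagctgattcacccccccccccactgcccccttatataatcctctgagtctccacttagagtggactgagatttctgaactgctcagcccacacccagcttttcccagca
Ifit1: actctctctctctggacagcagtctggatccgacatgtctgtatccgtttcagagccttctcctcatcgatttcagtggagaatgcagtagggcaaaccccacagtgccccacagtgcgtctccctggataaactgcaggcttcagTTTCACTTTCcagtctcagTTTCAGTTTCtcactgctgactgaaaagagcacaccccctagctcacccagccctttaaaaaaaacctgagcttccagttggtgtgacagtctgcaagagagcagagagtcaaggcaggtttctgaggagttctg
Gbp7: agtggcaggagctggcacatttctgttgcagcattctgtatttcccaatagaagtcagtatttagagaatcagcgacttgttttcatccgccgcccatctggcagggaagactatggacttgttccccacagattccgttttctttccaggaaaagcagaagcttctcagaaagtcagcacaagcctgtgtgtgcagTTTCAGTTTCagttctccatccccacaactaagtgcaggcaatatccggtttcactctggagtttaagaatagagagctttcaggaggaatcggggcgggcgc

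Genes that present antigen rose with them, 13 of 15 tested and 0 lower (median 2.56). H2-K1 and H2-D1, classical class I molecules that show peptides to T cells, were at 66.4, 74.6 and 73.3 CPM at E12 and 439, 366 and 459 CPM at E18 and at 34.2, 38 and 36.6 CPM at E12 and 484, 322 and 698 CPM at E18. Their log2 fold changes were 2.56 ± 0.13 and 3.79 ± 0.29, and reads shared among the near-identical class I genes make both uncertain. The peptide transporter subunit Tap2 rose by 2.56 ± 0.21 and the immunoproteasome subunit Psmb8 by 2.78 ± 0.25. Class II genes stayed low in absolute terms, with Cd74, the class II chaperone, at 0.489, 0.506 and 0.488 CPM at E12 and 3.34, 2.55 and 6.83 CPM at E18. Its rise (3.09 ± 0.44) was therefore between levels under 10 CPM.

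Acute-phase genes had the highest median change among lists with 5 or more tested members (median 4.67, 10 of 12 higher and 0 lower, or 1 lower without E18 DKO 3). Lcn2, which binds bacterial iron carriers, was at 0.717, 1.11 and 0.624 CPM at E12 and 2100, 1410 and 861 CPM at E18 (10.80 ± 0.51, adjusted p = 1.31e-05), and Serpina3n, a protease inhibitor, at 0.359, 0.607 and 0.244 CPM at E12 and 376, 288 and 375 CPM at E18 (9.76 ± 0.32). Every E18 library exceeded every E12 library more than 100-fold for both genes. Saa3, a serum amyloid made outside the liver, rose from 7.14, 4.79 and 8.76 to 1120, 803 and 282 CPM (6.73 ± 0.60). Socs3, a feedback inhibitor of cytokine signaling, rose by 3.72 ± 0.25 and the receptor subunit Il6ra by 3.45 ± 0.20. Il6, a known inducer of acute-phase genes, was at 0.767, 0.502 and 1.03 CPM at E18, with 4 counts in all at E12. Its part in these rises was not tested. Haptoglobin, Hp, a major acute-phase protein of liver, was at 7.4, 5.53 and 3.39 CPM at E12 and 0.986, 0.126 and 5.42 CPM at E18 and was not called (adjusted p = 0.267).

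Macrophage markers rose in part, with 9 of 16 higher and 3 lower (median 1.19), or 1 lower without E12 DKO 2, and their summed level went from 615 to 638 CPM at E12 to 1490 to 2080 CPM at E18. Csf1r, the growth factor receptor of macrophages, was at 160, 178 and 174 CPM at E12 and 587, 577 and 801 CPM at E18 (1.94 ± 0.17), while Mrc1, the mannose receptor of tissue macrophages, fell from 121, 120 and 131 to 65.1, 55.6 and 78.3 CPM (-0.90 ± 0.14). Cx3cr1 was at 28.2, 28.9 and 26.8 CPM at E12 and 26.5, 32.6 and 33.2 CPM at E18 and was not called (adjusted p = 0.38). The share of these cells in the rise of interferon-stimulated, antigen presentation and acute-phase genes was not tested. Of 14 neutrophil markers only 4 had enough counts to be tested, and S100a8, Mpo and Elane were not among them. S100a9 was at 1.92, 2.13 and 8.57 CPM at E18. Cxcr2, a chemokine receptor of that list, was at 1.01, 3.71 and 3.39 CPM at E12 and 218, 269 and 173 CPM at E18 (6.34 ± 0.49), and supplied most of the list's summed E18 level of 202 to 274 CPM.

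Cytokines and their receptors were a small group by level. Of 15 tested, 9 were higher and 1 lower. Il34, a second ligand of Csf1r, was at 0.815, 0.371 and 0.542 CPM at E12 and 24.4, 30.6 and 29.7 CPM at E18 (5.60 ± 0.29), and the interleukin 1 receptor Il1r1 at 13.3, 15.3 and 13.3 CPM at E12 and 170, 151 and 139 CPM at E18 (3.46 ± 0.13). The transcripts Il1b, Tnf, Cxcl1 and Cxcl2 did not have enough counts to be tested. Il33, an alarmin, fell from 7.69, 7.14 and 8.81 to 2.74, 1.05 and 1.3 CPM (-2.23 ± 0.37). In the Toll-like receptor pathway 12 of 18 were higher and 1 lower. Tlr4, the endotoxin receptor, was at 2.57, 2.33 and 2.66 CPM at E12 and 10.7, 14.8 and 7.48 CPM at E18 (2.12 ± 0.28), and the inhibitors Irak3 and Nfkbia rose by 3.97 ± 0.24 and 2.28 ± 0.15. Of the complement genes 8 of 16 were higher and 4 lower. C3, the central component, was at 288, 385 and 454 CPM at E12 and 2590, 1490 and 1150 CPM at E18 (2.21 ± 0.34), and Cfb, which activates it through the alternative route, fell from 12, 12.8 and 15 to 0.219, 0.879 and 1.08 CPM (-4.17 ± 0.45).

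The enzymes that set the local level of glucocorticoid moved in opposite directions. Hsd11b2, which inactivates corticosterone, was at 170, 163 and 179 CPM at E12 and 1.97, 2.18 and 2.33 CPM at E18 (chr8:105518755-105523988; -6.30 ± 0.14, adjusted p = 2.9e-06), the lowest adjusted p of any list member. Hsd11b1, which regenerates the active hormone, was at 0.587, 0.573 and 0.542 CPM at E12 and 36, 20.2 and 40 CPM at E18 (chr1:193221634-193264075; 5.81 ± 0.32, adjusted p = 2.02e-05). Each stage's values were close together for Hsd11b2, and for Hsd11b1 the lowest E18 library was E18 DKO 2. The glucocorticoid receptor Nr3c1 was at 72, 74.5 and 78.9 CPM at E12 and 154, 224 and 127 CPM at E18 (1.17 ± 0.21, adjusted p = 0.00239), a rise not called when all 12 libraries were fitted (0.0924).

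Known response genes of the receptor rose beside it. Sgk1, a kinase that controls ion transport, was at 7.04, 8.9 and 8.11 CPM at E12 and 441, 695 and 351 CPM at E18 (5.95 ± 0.31), and Tsc22d3, an anti-inflammatory mediator, at 15.7, 14 and 14.6 CPM at E12 and 475, 487 and 337 CPM at E18 (4.88 ± 0.19). Fkbp5, a chaperone that restrains the receptor, was at 70.1, 62.1 and 74 CPM at E12 and 657, 803 and 380 CPM at E18 (3.16 ± 0.28), and the transcription factor Zbtb16 at 2.97, 3.27 and 3.2 CPM at E12 and 47.3, 42.2 and 18 CPM at E18 (3.51 ± 0.37). E18 DKO 3 was the lowest of the E18 libraries for these 4 genes, and still above every E12 library. Per1, a clock gene that glucocorticoids induce, rose by 1.75 ± 0.17. Gja1, the gap junction protein connexin 43 that is known for its rise in the uterus before labour, was at 36.1, 45.8 and 32.6 CPM at E12 and 91.5, 109 and 82.6 CPM at E18 (1.30 ± 0.17). In all, 9 of 11 tested genes of this list were higher and 1 lower, and the oxytocin and progesterone receptors did not have enough counts to be tested.

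**Figure D4:**
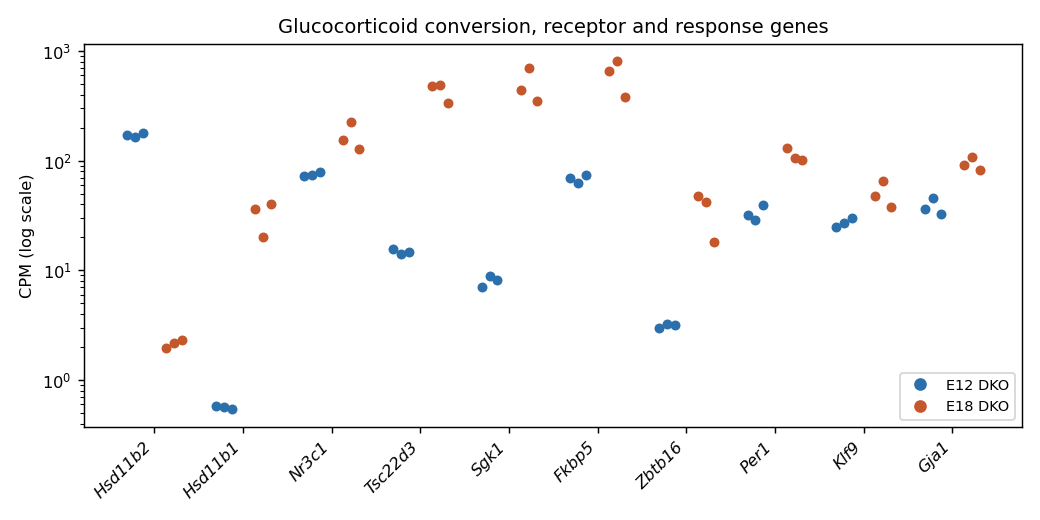
CPM of each library (points, log axis) for glucocorticoid-converting enzymes, the receptor Nr3c1, response genes and Gja1, in E12 DKO (blue) and E18 DKO (orange) membranes, 3 libraries each. Hsd11b2 lies between 163 and 179 CPM at E12 and between 1.97 and 2.33 CPM at E18, and Hsd11b1 moves from under 0.6 CPM to 20.2 to 40.0 CPM.

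Of 18 tested prostaglandin genes 6 were higher and 4 lower, shares close to those over all tested genes. Ptgs1, the constitutive cyclooxygenase, was at 6.65, 6.81 and 7.27 CPM at E12 and 37.3, 28.8 and 30.3 CPM at E18 (2.22 ± 0.15), whereas Ptgs2, the inducible enzyme, was at 9.71, 10.3 and 14.7 CPM at E12 and 19.3, 6.03 and 18.6 CPM at E18 and overlapped between the stages (adjusted p = 0.516). The uptake transporter Slco2a1 rose from 129, 140 and 168 to 704, 593 and 613 CPM (2.13 ± 0.15). The export transporter Abcc4 fell from 127, 134 and 129 to 4.77, 7.49 and 23.9 CPM (-3.44 ± 0.56), or -4.39 without E18 DKO 3. Ptgis, the prostacyclin synthase, rose by 2.99 ± 0.35, and Pla2g4a, the phospholipase that frees arachidonic acid, fell by 1.13 ± 0.16. Ptges, a prostaglandin E synthase, was at 18.4, 18.2 and 16.4 CPM at E12 and 32.3, 21.9 and 16.3 CPM at E18 (adjusted p = 0.174).

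Fibrillar collagen transcripts of the stroma fell while the collagen VI chains Col6a1 and Col6a2 rose. Of 13 stromal collagen genes, 7 were lower and 4 higher (median -1.09), and their summed level went from 15200 to 19200 CPM down to 6840 to 8450 CPM. Col1a1 was at 5210, 6700 and 6470 CPM at E12 and 1350, 875 and 1970 CPM at E18 (-2.13 ± 0.32, adjusted p = 0.00109), Col1a2 at 3090, 3890 and 4120 CPM at E12 and 1040, 866 and 1210 CPM at E18 (-1.83 ± 0.20) and Col3a1 at 3250, 3730 and 3800 CPM at E12 and 546, 501 and 1130 CPM at E18 (-2.31 ± 0.34). Every E18 library was below every E12 library, and E18 DKO 3 was the highest of them for all 3 genes. Col6a1 and Col6a2, chains of the beaded filament collagen VI, were at 327, 338 and 435 CPM at E12 and 1680, 1150 and 1280 CPM at E18 and 234, 259 and 312 CPM at E12 and 1370, 1260 and 1070 CPM at E18, log2 changes of 1.90 ± 0.20 and 2.20 ± 0.17. Col6a3 rose by 0.55 ± 0.18 (adjusted p = 0.0323), a call lost in 7 alternatives. Among these were scaling by library size alone (0.374) and the fit of all 12 libraries (0.404).

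Cartilage-type matrix genes fell most among the matrix lists, with 9 of 12 lower and 1 higher (median -3.88), or 2 higher without E12 DKO 1. Col2a1, the main fibrillar collagen of cartilage, was at 169, 176 and 307 CPM at E12 and 2.36, 3.26 and 2.22 CPM at E18 (-6.36 ± 0.33, adjusted p = 1.71e-05). Col9a1, Col9a2 and Col9a3, which coat its fibrils, fell by 6.55 ± 0.38, 4.60 ± 0.32 and 5.88 ± 0.40, and Col9a2 was the most abundant of the 3 by length (581 TPM at E12). Col11a1 went from 302, 283 and 421 to 13.6, 12.2 and 8.03 CPM (-4.89 ± 0.27). E12 DKO 3 was the highest library for Col2a1 and Col11a1, and the stages lay far apart. Acan, the large proteoglycan that defines cartilage, was at 0.684, 0.236 and 0.0814 CPM at E12 and 1.04, 0.544 and 1.36 CPM at E18, near the limit of detection at both stages (adjusted p = 0.102). Comp, a matrix protein of cartilage and tendon, rose from 1.47, 1.42 and 3.31 to 74.9, 58.3 and 61.4 CPM (4.96 ± 0.36). Matn1, Cnmd and Snorc, further cartilage genes, did not have enough counts to be tested.

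Small leucine-rich proteoglycans other than the deleted pair split. Fmod, Lum and Ogn, which bind collagen fibrils, were all lower at E18: Fmod was at 112, 152 and 102 CPM at E12 and 18.5, 10.2 and 14.5 CPM at E18 (-3.08 ± 0.26) and Lum at 402, 432 and 429 CPM at E12 and 107, 121 and 105 CPM at E18 (-1.92 ± 0.11). Ogn fell by 2.72 ± 0.20. Aspn, of the same class as the deleted pair, rose from 1.14, 3.13 and 2.2 to 20, 9.96 and 33.3 CPM (3.29 ± 0.53). Per length, Lum was at 542 TPM at E12 and 105 TPM at E18, and Aspn at 2.45 and 16.8 TPM. Of the 11 tested, 6 were higher and 3 lower, and the summed level went from 579 to 659 CPM to 216 to 248 CPM. The 6 became 3 when all 12 libraries were fitted.

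Basement membrane and elastic fibre genes rose in part. Col4a1 and Col4a2, the common collagen IV chains, rose by 1.22 ± 0.19 and 1.39 ± 0.18. Col4a1 was at 1730, 1740 and 1990 CPM at E12 and 4170, 4990 and 3580 CPM at E18. Col4a3 and Col4a4, chains of the more crosslinked collagen IV network, rose from under 2 CPM by 2.95 ± 0.43 and 3.82 ± 0.55. Lamc1 was at 473, 498 and 544 CPM at E12 and 506, 522 and 509 CPM at E18 and overlapped between the stages (adjusted p = 0.89). In all, 11 of 22 basement membrane genes were higher and 4 lower, or 7 higher with all 12 libraries fitted. Of 23 tested elastic fibre and crosslinking genes 10 were higher and 5 lower (median 0.54). Eln, which encodes elastin, was at 17.9, 31.8 and 14 CPM at E12 and 483, 125 and 691 CPM at E18 (4.35 ± 0.66, adjusted p = 0.00121), and its E18 values spread more than 5-fold. Ltbp4, needed to assemble elastic fibres, rose from 10.5, 12.6 and 8.87 to 125, 78.4 and 116 CPM (3.32 ± 0.23). Fbn2, the fibrillin of early development, fell by 2.18 ± 0.38, and Fbn1 was at 114, 125 and 133 CPM at E12 and 108, 155 and 127 CPM at E18 (adjusted p = 0.699).

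**Figure D5:**
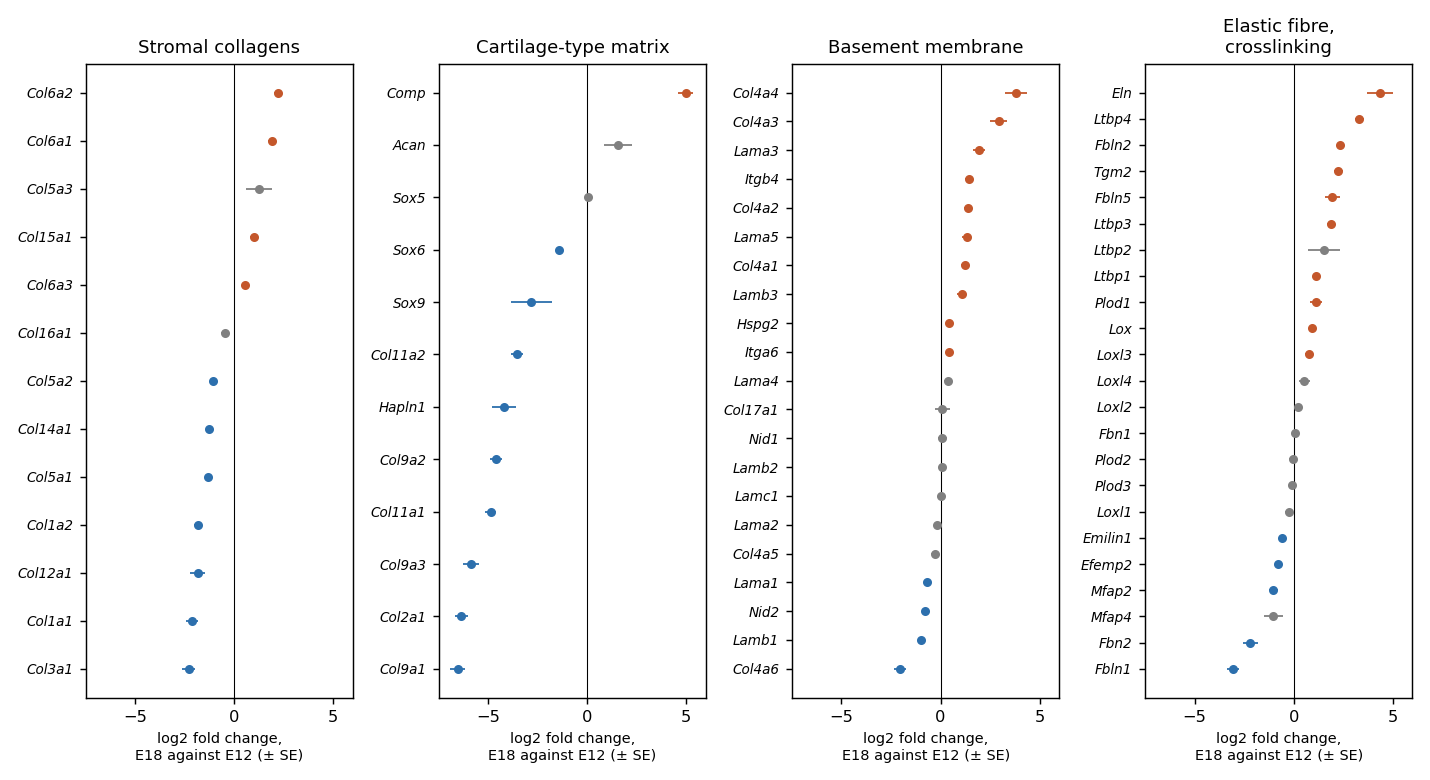
Log2 fold change, E18 against E12, with SE for the genes drawn from the stromal collagen, cartilage-type matrix, basement membrane, and elastic fibre and crosslinking lists in DKO membranes; orange marks genes called higher, blue lower and grey not called. Collagen I, II, III, IX and XI genes lie to the left of 0, and Comp and Eln lie furthest to the right.

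Matrix proteases and their inhibitors rose in most cases. Of 16 tested, 11 were higher and 5 lower, or 3 lower without E12 DKO 1. Mmp19 was at 4.01, 5.56 and 3.39 CPM at E12 and 94.8, 108 and 128 CPM at E18 (4.67 ± 0.23) and the membrane-bound collagenase Mmp14 at 123, 156 and 132 CPM at E12 and 379, 405 and 337 CPM at E18 (1.45 ± 0.14). The inhibitors Timp1, Timp2 and Timp3 rose by 2.58 ± 0.28, 1.79 ± 0.21 and 1.33 ± 0.13, and Timp3 was at 126, 149 and 164 CPM at E12 and 381, 349 and 373 CPM at E18. Of 8 tested hyaluronan and large proteoglycan genes 2 were higher and 0 lower (median -0.156), so that 25% were called, against 59.4% of all tested genes. Has1, a hyaluronan synthase, had 9 counts in all at E12 and was at 26, 8.5 and 13.8 CPM at E18, a ratio of 166-fold (95% counting interval 87.1 to 364). The related synthases Has2 and Has3 were not called (adjusted p = 0.93 and 0.186). The hyaluronan receptor Cd44 rose from 9.94, 17.6 and 9.57 to 92.8, 101 and 112 CPM (3.05 ± 0.26), while Vcan, the hyaluronan-binding proteoglycan of loose matrix, was at 123, 147 and 152 CPM at E12 and 62.2, 101 and 116 CPM at E18 (adjusted p = 0.0533).

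Amnion and simple epithelium genes had no common direction, with 6 of 17 tested higher and 7 lower (median -0.36). Krt8 and Krt7, keratins of simple epithelium, rose at E18. Grhl3 and Cldn6 of the same list changed by -5.9 and -2.85 (adjusted p = 0.000173 and 0.00329). Krt8 was at 559, 541 and 673 CPM at E12 and 1840, 1560 and 1460 CPM at E18 (1.45 ± 0.16) and Krt7 at 361, 347 and 412 CPM at E12 and 1830, 1640 and 1360 CPM at E18 (2.11 ± 0.17). Krt14, a basal keratin, was at 0.359, 0.539 and 0.678 CPM at E12 and 453, 353 and 280 CPM at E18 (9.40 ± 0.32, adjusted p = 5.62e-06), Krt17 at 0.13, 0.303 and 0.353 CPM at E12 and 49.2, 27.6 and 41.3 CPM at E18 and Krt6a at 0.652, 1.28 and 2.12 CPM at E12 and 147, 139 and 69.5 CPM at E18. No E12 value of these 3 reached 2.2 CPM, and reads shared among related keratins make the levels uncertain. Krt5, the usual partner of Krt14, was at 6.65, 10.2 and 1.08 CPM at E12 and 0.876, 0.837 and 0.759 CPM at E18, a log2 fold change of -2.85 ± 0.75 (-2.23 without E12 DKO 2) that was not called with limma voom (adjusted p = 0.138) or the Y-linked covariate (0.0633). Sbsn, a protein of cornifying epithelium, rose from 2.77, 2.66 and 4.42 to 200, 158 and 143 CPM (5.66 ± 0.27). In all, 9 of 12 tested genes of stratified epithelium were higher and 1 lower, or 2 lower without E12 DKO 3.

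Msln, the mesothelin of serosal linings, was at 2.71, 3.34 and 1.14 CPM at E12 and 1910, 1130 and 1360 CPM at E18 (9.27 ± 0.51, adjusted p = 1.92e-05), and Wt1, a transcription factor of mesothelium, at 3.75, 1.31 and 2.36 CPM at E12 and 73, 109 and 109 CPM at E18 (5.29 ± 0.39). Upk3b and Upk1b, uroplakins that mesothelium also makes, rose by 2.43 ± 0.39 and 2.87 ± 0.27, so that 5 of 6 mesothelial genes were higher and 0 lower. Gabrp, a subunit of the GABA receptor, was at 44.3, 49.6 and 0.868 CPM at E12 and 0.164, 0.126 and 0.217 CPM at E18 (-7.53 ± 1.59, adjusted p = 0.00539). E12 DKO 3 was far below the other E12 libraries and the call was lost with limma voom (adjusted p = 0.266). The general epithelial gene Cdh1 was at 472, 472 and 499 CPM at E12 and 564, 595 and 476 CPM at E18 and was not called (adjusted p = 0.265).

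Visceral yolk sac endoderm genes showed no common direction. Of 19 tested, 4 were higher and 4 lower (median -0.17), and 11 were lower when E18 DKO 3 was left out, or 2 without any 1 of the E12 libraries. Afp overlapped between the stages (adjusted p = 0.959). Apoa1 was at 7640, 7190 and 6680 CPM at E12 and 26700, 27700 and 53800 CPM at E18 (2.33 ± 0.36), Apoa4 at 3210, 3100 and 3220 CPM at E12 and 7410, 8050 and 12900 CPM at E18 (1.57 ± 0.26) and transferrin, Trf, at 723, 692 and 616 CPM at E12 and 2340, 1750 and 3890 CPM at E18 (1.98 ± 0.30). These secreted carriers were higher in every E18 library. Lrp2 or megalin, the endocytic receptor of the apical surface, was at 1740, 1680 and 1860 CPM at E12 and 222, 474 and 605 CPM at E18 (-2.02 ± 0.34, adjusted p = 0.00207). Its partner Cubn was at 2020, 2300 and 1900 CPM at E12 and 164, 300 and 1540 CPM at E18 and was not called (adjusted p = 0.0988), with E18 DKO 3 near the E12 level. Ttr, a carrier of thyroid hormone, was at 3890, 3360 and 2980 CPM at E12 and 805, 627 and 8320 CPM at E18 (adjusted p = 0.955).

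Among the largest falls, Glyat, which joins glycine to acids in mitochondria, was at 10.9, 13.6 and 15.2 CPM at E12 and 0, 0.0419 and 0 CPM at E18 and had 1 count in all at E18, a ratio of 811-fold (95% counting interval 145 to 32000), or at least 81.1-fold, against a floor of 3 counts per library, without E18 DKO 2. Gys2, the glycogen synthase known from liver, was at 23.4, 24.2 and 23.4 CPM at E12 and 0, 0.0419 and 0.325 CPM at E18 with a ratio of 205-fold (95% counting interval 99.2 to 510; 997-fold, 179 to 39400, without E18 DKO 3). Bhmt, which makes methionine from betaine, was at 16.8, 17.3 and 16.8 CPM at E12 and 0.11, 0.0419 and 0.108 CPM at E18 with a ratio of 205-fold (95% counting interval 87.8 to 633). Glp1r, the receptor of glucagon-like peptide 1, was at 22, 23.8 and 32.2 CPM at E12 and 0.0548, 0.126 and 0.271 CPM at E18 with a ratio of 178-fold (95% counting interval 93.6 to 390; 279-fold, 109 to 1020, without E18 DKO 3). Each of these 4 genes varied less than 1.5-fold among the E12 libraries. A1cf, the cofactor of apolipoprotein B RNA editing, fell from 25.8, 28.9 and 31 to 0.329, 0.0419 and 0.434 CPM (-6.80 ± 0.46), and Haao, an enzyme of tryptophan breakdown, from 26.8, 45.8 and 50.9 to 0.383, 0.293 and 0.542 CPM (-6.67 ± 0.37). Cyp2c68 fell by 6.77 ± 0.25, Mmd2 with a ratio of 167-fold (95% counting interval 65.1 to 615), and Usp51 changed by -6.95 ± 0.47, or -7.90 without E18 DKO 3.

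Sterol synthesis fell along the pathway. Of 24 tested genes 19 were lower and 1 higher (median -1.86). Dhcr7, the enzyme of the last step to cholesterol, was at 159, 163 and 188 CPM at E12 and 3.07, 3.98 and 6.29 CPM at E18 (-5.26 ± 0.28). Hmgcs1, which opens the pathway, fell by 1.53 ± 0.17. Srebf2, the factor that drives these genes, was at 261, 283 and 273 CPM at E12 and 310, 310 and 314 CPM at E18 and was not called (adjusted p = 0.138), and Ebp was the single member that rose (0.90 ± 0.13). Windows were listed for 16 of the genes. CCAAT stood in 16 of these 16, against 42.1% of tested genes, and the sterol regulatory element, spelled TCACNCCAC on either strand, in 1 (6.25%, against 1.5% of tested genes and 1.24% of all windows). That window is Hmgcs1 (chr13:119690101-119690400, plus strand), with the element in capitals.
Hmgcs1: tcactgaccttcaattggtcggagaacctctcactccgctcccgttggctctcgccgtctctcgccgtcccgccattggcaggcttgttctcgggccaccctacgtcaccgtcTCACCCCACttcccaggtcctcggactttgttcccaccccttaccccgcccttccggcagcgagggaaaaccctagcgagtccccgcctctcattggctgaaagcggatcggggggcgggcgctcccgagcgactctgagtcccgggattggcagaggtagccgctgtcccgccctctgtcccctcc

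Glycolytic genes did not move as a group, with 5 of 22 higher and 5 lower, or 8 higher without E18 DKO 2. Egln3, a prolyl hydroxylase that hypoxia induces, was at 7.46, 4.89 and 5.86 CPM at E12 and 470, 491 and 257 CPM at E18 (6.06 ± 0.33), and Adm, which encodes adrenomedullin, rose by 3.02 ± 0.42, whereas Vegfa was at 99, 102 and 90 CPM at E12 and 139, 90.4 and 138 CPM at E18 (adjusted p = 0.143) and Slc2a1, the main glucose transporter, at 192, 217 and 190 CPM at E12 and 467, 181 and 227 CPM at E18 (adjusted p = 0.19). Pdk1, which closes entry to the citric acid cycle, fell by 1.32 ± 0.16. Of 7 aquaporins 1 was higher and 5 lower, or 3 lower without E12 DKO 2 and 2 higher without E18 DKO 1. Aqp1, a water channel, rose from 12.4, 10.3 and 11.6 to 44.1, 49.2 and 38.5 CPM (1.94 ± 0.14). Aqp3, which also carries glycerol, fell from 46.9, 58.3 and 53.4 to 4.82, 3.68 and 15.5 CPM (-2.73 ± 0.51, or -3.64 without E18 DKO 3). Among 13 retinoid genes 9 were higher and 2 lower, or 0 lower without E18 DKO 1. Rarres2, a chemoattractant that retinoids induce, was at 5.41, 7.38 and 7.51 CPM at E12 and 221, 76.3 and 194 CPM at E18 (4.60 ± 0.43), and Cyp26b1, which breaks down retinoic acid, at 7.59, 4.21 and 5.53 CPM at E12 and 78.2, 96.7 and 21.7 CPM at E18 (3.50 ± 0.55).

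Most genes of early embryonic growth in the Lin28 and let-7 list fell. In the list of Lin28 and let-7 targets, which holds growth genes that the let-7 microRNAs repress, 10 of 12 were lower and 1 higher (median -1.95). Lin28b, which blocks let-7 maturation, was low at both stages, with a ratio of 10.8-fold (95% counting interval 5.76 to 23). Igf2bp1, an RNA-binding let-7 target, was at 140, 132 and 133 CPM at E12 and 30.6, 32.7 and 35.7 CPM at E18 (-2.03 ± 0.11), and its relative Igf2bp2 moved the other way, from 91.1, 99.3 and 83.2 to 246, 294 and 248 CPM (1.53 ± 0.13). Lin28a was at 68.1, 74.2 and 58.7 CPM at E12 and 1.15, 1.42 and 20.3 CPM at E18, a log2 fold change of -3.15 ± 1.00 (adjusted p = 0.0289; -5.68 without E18 DKO 3) that was not called without E18 DKO 1 (adjusted p = 0.0594) or without E12 DKO 1, 2 or 3 (0.0634, 0.0677 and 0.0546). Of 26 tested Hox genes 12 were lower and 1 higher, or 0 higher without E12 DKO 1, E12 DKO 3, E18 DKO 1 or E18 DKO 3. The share of Hox genes called was 50%, against 59.4% of all tested genes, and 28.7% of all tested genes were lower. Hoxc8 was at 33.3, 32 and 35.2 CPM at E12 and 9.15, 11.6 and 9.71 CPM at E18 (-1.72 ± 0.14). Of 8 tested Hoxa genes 6 were called lower and of 8 tested Hoxb genes 0, a split seen in the values and not tested. The 6 had low means at E12, 1.26 to 2.87 CPM. Hoxa3 overlapped between the stages and lost its call in 8 alternatives, and Hoxa4 lost its call in 3. Without E12 DKO 1 their adjusted p were 0.184 and 0.0875. Of 22 tested transcription factors of extraembryonic mesenchyme 4 were higher and 8 lower (median -0.75), and 54.5% were called, against 59.4% of all tested genes. Pitx1, a factor of hindlimb and allantois mesoderm, was at 40.5, 51.9 and 37.8 CPM at E12 and 0.657, 1.13 and 0.325 CPM at E18 (-5.89 ± 0.37), while Hand2, of lateral and extraembryonic mesoderm, rose from 52.6, 54.1 and 50 to 135, 171 and 137 CPM (1.5 ± 0.13) and its relative Hand1 fell by 1.43 ± 0.14.

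Of 14 insulin-like growth factor genes 4 were higher and 3 lower, and 50% were called, against 59.4% of all tested genes. Igf2, the main insulin-like growth factor of the fetus, was at 6030, 7050 and 6500 CPM at E12 and 10100, 9290 and 8660 CPM at E18 and was not called (adjusted p = 0.0508). Several of its binding proteins rose: Igfbp3 was at 107, 71.5 and 91.5 CPM at E12 and 1760, 2330 and 1890 CPM at E18 (4.47 ± 0.23), Igfbp7 at 19.8, 20.4 and 25.7 CPM at E12 and 423, 296 and 504 CPM at E18 (4.21 ± 0.24) and Igfbp6 at 0.326, 0.27 and 0.108 CPM at E12 and 109, 44.2 and 49 CPM at E18 (8.17 ± 0.56). Igfbp2 and Igfbp5 fell by 2.08 ± 0.28 and 1.99 ± 0.40. Igfbp1 was not called (adjusted p = 0.606), and Igfbp4 was at 480, 472 and 464 CPM at E12 and 445, 538 and 404 CPM at E18 (adjusted p = 0.865). In the epidermal growth factor family 7 of 8 were higher and 1 lower. Areg, an epithelial ligand, had no count in any E12 library and was at 9.91, 9.75 and 7.54 CPM at E18, at least 97.1-fold higher against a floor of 3 counts per library, and Egfr, its receptor, was at 25.8, 28.3 and 29.2 CPM at E12 and 67.3, 77.7 and 54.8 CPM at E18 (1.26 ± 0.15). Of 26 tested Wnt pathway genes 6 were higher and 7 lower (median -0.097), and 50% were called, against 59.4% of all tested genes. Wnt4 was at 7.1, 7.01 and 5.64 CPM at E12 and 215, 170 and 200 CPM at E18 (4.89 ± 0.16), and Rnf43, which removes Wnt receptors from the surface, fell with a ratio of 50.8-fold (95% counting interval 21.6 to 157). Axin2, a common readout of Wnt signaling, was at 4.04, 5.09 and 3.06 CPM at E12 and 3.94, 2.72 and 2.22 CPM at E18 (adjusted p = 0.238). Of 26 TGF-beta and BMP pathway genes 8 were higher and 4 lower, or 7 lower without E18 DKO 3. This was 46.2% of the list, against 59.4% of all tested genes, and its median change was 0.02. Id1 and Id3, targets of bone morphogenetic proteins, rose by 2.94 ± 0.31 and 2.98 ± 0.41. Their relatives Id2 and Id4 were at 90.6, 80.7 and 81.5 CPM at E12 and 58.4, 39 and 74 CPM at E18, and at 4.99, 5.29 and 5.29 CPM at E12 and 3.29, 2.22 and 4.12 CPM at E18 (adjusted p = 0.0611 and 0.0552). Smad6 and Smad7 were at 14.8, 15.4 and 13.9 CPM at E12 and 11.8, 14.9 and 15.9 CPM at E18 and 17.9, 16.9 and 20.2 CPM at E12 and 23.7, 19.8 and 21.2 CPM at E18 (adjusted p = 0.817 and 0.171).

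Imprinted genes, several of which control fetal growth, had no shared direction, with 9 of 21 higher and 7 lower (median 0.39), or 4 higher without any 1 of the E12 libraries. Mest, a paternally expressed gene of mesoderm, was at 669, 678 and 670 CPM at E12 and 684, 872 and 619 CPM at E18 (adjusted p = 0.573), and Dlk1, a paternally expressed Notch relative, at 111, 107 and 113 CPM at E12 and 47.7, 40.3 and 20.1 CPM at E18 (-1.61 ± 0.29, adjusted p = 0.00261). Of 22 p53 target and senescence genes 12 were higher and 4 lower (median 0.70). Cdkn1a, a main p53 target, was at 24.1, 27.3 and 29.2 CPM at E12 and 215, 197 and 176 CPM at E18, and every E18 value lay above every E12 value. Other p53 targets differed from it. Gdf15 changed by -2.3 (adjusted p = 0.00276; -2.91 without E18 DKO 3), and Aen and Eda2r were not called (0.747 and 0.602). Bax and Bbc3, called higher, lost their calls with scaling by library size alone (0.0594 and 0.056). Of 10 trophoblast and decidua genes tested 3 were lower and 0 higher, or 1 lower without E12 DKO 2 or E12 DKO 3, and their summed level was 9.97 to 49.6 CPM at E12 and 8.55 to 62.0 CPM at E18.

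Vessel genes rose by small amounts, 18 of 21 higher and 1 lower (median 1.21), or 0 lower without E12 DKO 2, E12 DKO 3 or E18 DKO 1, but only 4 passed the 2-fold test. The lower gene was Kdr, not called with all 12 libraries fitted (-0.54, adjusted p = 0.168). Cdh5 rose by 0.46 (adjusted p = 0.0109), a call lost with scaling by library size alone (0.486) and with all 12 libraries fitted (0.158). Eng, an endothelial co-receptor, was at 59.2, 59 and 59.8 CPM at E12 and 299, 304 and 327 CPM at E18 (2.39 ± 0.10), Pecam1, an endothelial adhesion molecule, at 34.8, 38.2 and 39.1 CPM at E12 and 99.6, 88.5 and 111 CPM at E18 (1.41 ± 0.12) and Robo4, a receptor of endothelium, at 10.3, 10 and 12.1 CPM at E12 and 64.3, 66.1 and 58.5 CPM at E18 (2.54 ± 0.13). Smooth muscle genes rose in 6 of 11, and in 3 with all 12 libraries fitted. Mylk, the kinase that starts contraction, was at 69.5, 46.9 and 48.6 CPM at E12 and 402, 281 and 337 CPM at E18 (2.63 ± 0.21), and Acta2 at 317, 386 and 315 CPM at E12 and 513, 360 and 559 CPM at E18 (adjusted p = 0.057).

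Immediate early and stress genes were higher at E18 in 20 of 21 cases, with 1 lower (median 2.63). Fos, a factor induced within minutes of stimulation, was at 10.1, 12 and 15.4 CPM at E12 and 273, 235 and 200 CPM at E18 (4.24 ± 0.21), and Hspa1a, an inducible heat-shock chaperone with a near-identical copy in Hspa1b, was at 3.94, 3.54 and 3.34 CPM at E12 and 88.1, 42.2 and 67.9 CPM at E18 (4.19 ± 0.29). Hsph1, another heat-shock protein, fell by 0.68 ± 0.16. For Fos and Hspa1a no E18 value came near the E12 values, and E18 DKO 1 was the highest for both. Mitochondrial transcripts made up 4.193 to 5.069% of counts at E12 and 6.517%, 3.577% and 7.784% in E18 DKO 1, 2 and 3. The labels give no time from dissection to freezing, and the part of handling in these values was not tested.

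The largest rises outside the groups above were of genes with almost no E12 signal. Dppa3, a maternal and germ cell factor, and Csn2, the milk protein beta-casein, had no count in any E12 library. They were at 22, 22.2 and 7.65 and 20.2, 10.1 and 3.36 CPM at E18, at least 185-fold and at least 120-fold higher against a floor of 3 counts per library, with E18 DKO 3 the lowest for both. Without E18 DKO 1, the bound for Csn2 was at least 72.2-fold. Csn1s2b, another casein, was at 76, 74.8 and 36.3 CPM at E18, a ratio of 2060-fold (95% counting interval 703 to 9970; 3830-fold, 687 to 151000, without E12 DKO 3), and the other 6 milk genes did not have enough counts to be tested. Ces3a, a carboxylesterase, was at 77, 66.7 and 61.1 CPM, with a ratio of 1650-fold (95% counting interval 646 to 6080). Vsig1, a junctional adhesion molecule of epithelia, was at 93.7, 78.4 and 52.4 CPM, with a ratio of 1040-fold (95% counting interval 506 to 2600). Atp6v0d2, a subunit of the vacuolar proton pump, was at 0.0652, 0.27 and 0.0814 CPM at E12 and 132, 148 and 102 CPM at E18 (9.84 ± 0.39, or 10.65 without E12 DKO 2). Pkd2l1, a cation channel, was at 15.9, 26.6 and 16.6 CPM with a ratio of 1980-fold (95% counting interval 354 to 78200; at least 198-fold without E12 DKO 3), Dppa1 at 25.3, 26.7 and 8.35 CPM with a ratio of 1010-fold (95% counting interval 278 to 8320), and Cyp4a32 at 34.7, 27.1 and 22.7 CPM with a ratio of 908-fold (95% counting interval 310 to 4410). Every E18 value of these 9 genes was above 3 CPM.

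The same stage comparison in the libraries labelled wild-type gave 173 called genes of 18153 (0.953%), 53 higher and 120 lower. The embryonic share of beta-globin counts was 14.8%, 95.1% and 97.1% in the libraries labelled E12 WT and 81.4%, 87.8% and 74.8% in those labelled E18 WT, so that E12 WT 1 was the lowest of these 6 and no library labelled E18 WT came near the E18 DKO shares. The difference between the DKO stage change and the labelled wild-type stage change was called for 7600 genes (41.9%), 3921 higher in DKO and 3679 lower. With scaling by library size alone these were 2187 and 6438. Of the 10177 genes called in DKO membranes 6828 were also called for the difference, and 6825 of these had the sign of the DKO change. Strain, genotype and the stage of the libraries labelled wild-type cannot be told apart in this difference, so it does not show that the DKO stage changes are particular to the knockout.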

How the data were processed

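RNA sequencing counts of whole fetal membranes from 3 E12 DKO and 3 E18 DKO libraries were compared, with groups taken from the sample labels. Per the submitters' processing notes, reads were processed with Trimmomatic 0.36, STAR 2.4.2a and featureCounts of Subread 1.5.0 on GRCm38. Per the file headers, the authors deposited raw counts per gene of Ensembl 86, with strand option 2 and no option for reads aligned to several places. The table holds 48795 genes, and 48349 IDs had a symbol. Total counts were 19967593 to 33065424 per DKO library. Intervals and floors cover counting error only.

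The 6 DKO libraries were fitted with edgeR 4.0.16 in R 4.3.3 (filterByExpr, TMM, glmQLFit and glmQLFTest, 4 residual degrees of freedom), with Benjamini-Hochberg adjustment over all 17133 genes and a threshold of 0.05. SE was taken as |log2 fold change| over the root of F. CPM use TMM-scaled library sizes, and TPM come from counts and gene length. The fit was tested on simulated counts in which few genes changed and each gene had the same dispersion at both stages. The data differ from this in both respects, so the error rate under their conditions was not tested. The wild-type comparison and the difference of stage changes used all 12 libraries. Alternatives used DESeq2 1.42.0, limma 3.58.1, other scalings, filters and samples. The Y-linked covariate, the summed level of 4 genes, was added after the data were seen. Figures were drawn with matplotlib 3.10.9. Promoter windows come from RefSeq tables of GRCm38.p6.

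The members and the 48 gene lists were chosen with earlier results of these data known. The genes named were Bgn and Dcn, the 12 genes that rose most and the 12 that fell most among those called (mean CPM of 5 or more, stages not overlapping, conventional symbols), key members of each list, the 3 members with the smallest adjusted p in a list, and the 10 genes with the highest TPM in each stage. The text takes from these the genes that illustrate each list. Other list members named in the text were chosen after their values were seen. Some members that are counted in the lists are not reported here by name or drawn.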

Additional observations from a re-analysis of the deposited data

Results flagged for a closer look

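The stage change in DKO membranes differed from the stage change between the libraries labelled wild-type for 7600 genes, by edgeR's quasi-likelihood test of the difference itself (41.9% of 18153 tested). The embryonic beta-globin share was low in E12 WT 1 and high in the 3 libraries labelled E18 WT, unlike in the DKO libraries of the same stages, and the part of those 4 libraries in this number was not tested.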

How the results depend on the processing

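With 10177 genes called, the total was 10167 with DESeq2 size factors, 10598 with DESeq2's Wald test, 10381 with limma voom, 10604 without a filter, 9425 with at least 1 CPM in 3 libraries, 8349 with all 12 libraries fitted, and 4062 (2162 higher, 1900 lower) against a 2-fold change. Leaving out each library in turn gave 8409 to 11107 calls, 4403 to 5614 of them higher and 4006 to 5493 lower. Scaling by library size alone gave 3595 higher and 6930 lower. For the difference between the stage changes, it gave 8625 calls, 2187 higher and 6438 lower (median -0.645). There, leaving out each library gave 6198 to 8528 calls, 3179 to 4233 higher and 2976 to 4295 lower. With the replicate number as a block, 9123 genes were called (4682 higher, 4441 lower), and 7294 for the difference. Libraries with the same number correlated at 0.0798, -0.0989 and -0.152 in their deviations from the stage means, so the numbers were not taken as pairs. With alpha-globin in place of beta-globin, the embryonic share was 43.3% at E12 and 0.575% at E18.

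Over the 281 named genes, 4262 values under the alternatives stayed on their side of the threshold, 150 lost the call and 72 gained one. The sign changed in 33 values of 16 genes, of which 0 were called. Of the list counts, 1400 lay within 1.5 times the reported count and 136 did not. Genes near 0 in 1 stage are limited by depth, and their ratios by the counting interval.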
